A study of Mus musculus with 18 samples.

Results

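The matrix metalloproteinases (MMPs), the ADAMTS proteases and the tissue inhibitors of metalloproteinases (TIMPs) were described in back skin of N-IKKα, C-IKKα and WT mice. Members were every gene whose symbol was Mmp, Adamts or Timp followed by digits and at most 1 letter, which gave 46 of the 55357 genes in the table: 23 Mmp, 19 Adamts and 4 Timp genes. Of these, 32 were tested, having normalized counts of 10 or more in 6 or more of the 18 libraries: 14 Mmp genes, 17 Adamts genes and Timp2. The other 14 fell below that filter, and 4 of them (Timp1, Timp3, Timp4 and Mmp19) were listed at 0 in every library.

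Bulk RNA was sequenced from 3 groups of 6 FVB mice aged 6 months, 1 library a mouse. N-IKKα mice carried a transgene whose exogenous IKKα is placed in the nucleus of keratinocytes, and in C-IKKα mice it is placed in the cytoplasm. WT mice were not transgenic. IKKα is a kinase of the NF-κB pathway encoded by Chuk. The sources used here do not give the transgene promoter, the number of founder lines or the sex of the mice. The labels named no litter or batch, so p values measure the spread between these mice.

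MMPs are zinc proteases that cut collagens, elastin, proteoglycans and cell surface proteins; most are secreted as inactive precursors and some stay anchored in the membrane. ADAMTS proteases are secreted relatives with thrombospondin repeats that trim procollagens, cut large proteoglycans such as versican, or act on the fibrillin network. TIMPs bind the active site of MMPs and of some ADAMTS proteases. In skin these enzymes act in dermal collagen turnover, wound repair and the remodelling around hair follicles, which cycle between growth (anagen) and rest (telogen).

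Several MMP genes lie in a tight cluster on mouse chromosome 9, and AP-1 is a known regulator of some of them. Sequence upstream of the gene start was taken from RefSeq promoters (GRCm38.p6), where 32 member genes had an entry. The AP-1 motif TGANTCA, searched on both strands in the 250 bases before the start, was found in 8 of them (25%): Mmp1a, Mmp1b, Mmp3, Mmp7, Mmp10, Mmp12, Mmp13 and Mmp20, all on chromosome 9. It was found in 6.75% of all 32851 promoters. Members were counted per gene, with the motif in any of a gene's promoters, so the shares are not in the same unit. The 100 bases before the start of 3 cluster genes are shown. They were chosen because WT library 1, described later, had the highest Mmp13 and Mmp8 of all libraries and highest Mmp3 of growing libraries. Mmp12 was also highest in that library but is not shown, and the motif in its promoter began 44 bases before the start. Capitals mark the motif, which began 35 bases before the start in Mmp13 and 46 bases before it in Mmp3, and these letters did not occur in the Mmp8 window.
Mmp13, chr9:7272414-7272513, plus strand: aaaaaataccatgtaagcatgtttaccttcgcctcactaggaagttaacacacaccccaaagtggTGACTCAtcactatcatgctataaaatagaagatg
Mmp3, chr9:7445722-7445821, plus strand: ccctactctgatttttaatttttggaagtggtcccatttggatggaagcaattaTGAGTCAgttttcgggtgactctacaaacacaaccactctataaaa
Mmp8, chr9:7558329-7558428, plus strand: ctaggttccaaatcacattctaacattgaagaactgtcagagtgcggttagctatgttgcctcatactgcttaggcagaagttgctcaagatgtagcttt

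The values were normalized counts, and the reads behind them ran from 11.1 to 15.7 M a library, so that a listed 0 allowed up to 2.45 to 3.61 normalized counts depending on the library. The lists of 10 keratinocyte and 10 fibroblast markers were detected in full, as were 12 of 12 skeletal muscle markers. Chuk averaged 990 ± 93.3 normalized counts in N-IKKα skin, 889 ± 26.3 in C-IKKα skin and 1007 ± 147 in WT skin (SD, n = 6 each). The exact two-sided permutation p was 0.848 for N-IKKα and 0.0563 for C-IKKα against WT, and 0.0346 for N-IKKα against C-IKKα, where the smallest possible p was 0.00216; these are not adjusted for the 3 comparisons, and the lowest limma adjusted p of Chuk in them was 0.463. Chuk was not higher in either transgenic group, so its row did not check the labels; whether reads of the transgenes count toward it is not given in the sources used here.

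Libraries differed in hair state and in sex beyond their genotype labels. The mean log2 level of 29 hair shaft and inner root sheath genes, none of them a member, was 9.27 to 11.5 in 6 libraries and 1.84 to 4.71 in the other 12. These are called growing and resting below. The growing libraries were 3 from N-IKKα mice (8, 9 and 11), 1 from a C-IKKα mouse (14) and 2 from WT mice (1 and 4). By the Y-linked gene Ddx3y, 2 N-IKKα, 4 C-IKKα and 2 WT libraries were read as male, and all 8 were resting. The remaining 4 resting libraries and all 6 growing libraries were read as female. Hair state and sex were read from the data, so values over these sets are descriptions without a test.

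The inhibitors could be read through Timp2 alone. Timp2 both inhibits MMPs and, with Mmp14, activates the Mmp2 precursor at the cell surface. It had 4723, 7702 and 20739 normalized counts (lowest, median and highest of 6 libraries) in N-IKKα skin, 6983, 14739 and 17438 in C-IKKα skin, and 5295, 10133 and 18799 in WT skin. The ranges of the 3 groups overlapped widely. The log2 fold change, on the log2(normalized count + 1) scale, was 0.21 ± 0.40 for C-IKKα against WT (SE; limma, adjusted p = 0.986) and -0.30 ± 0.40 for N-IKKα against WT (limma, adjusted p = 0.891). No balance of proteases and inhibitors was computed, since Timp1, Timp3 and Timp4 had no value above 0.

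The 4 members at 0 everywhere were the 4 whose whole span is overlapped by other annotated genes. In the GENCODE annotation of build GRCm38, matched by gene identifier, Timp1 lies inside Syn1, Timp3 inside Syn3 and Timp4 inside Syn2, each on the opposite strand. The synapsin hosts, which encode neuronal vesicle proteins, were detected, with 22.6 to 122 normalized counts for Syn1, 69.3 to 182 for Syn3 and 17.0 to 292 for Syn2 over the libraries. Mmp19 is overlapped in full by Gm47093 and Tmem198b. Across the table, 496 of 534 protein-coding genes (92.9%) that lie inside another protein-coding gene on the opposite strand were at 0 in every library. The same held for 339 of 379 (89.4%) that lie inside another on the same strand only. It held for 1203 of 1368 (87.9%) whose whole span is overlapped, and for 2389 of 11770 (20.3%) with no overlapping gene. The overlap's part in the zeros of the TIMPs was not tested, and the zeros are not read as absent RNA. Of the detected members, Timp2 is overlapped over 18.5% of its span, Mmp11 over 25.4% and Adamts9 over 28.6%, and 23 of the 45 matched members have no overlapping gene.

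No member differed between C-IKKα and WT skin at an adjusted p below 0.05 in limma, the test used throughout, and the same held for N-IKKα against WT. Among all 17667 genes tested, 0.345% were called in the first comparison, all of them higher in C-IKKα skin, and 0.00566% in the second. At an unadjusted p below 0.05 there were 3 members and 1012 genes for C-IKKα against WT, and 1 member and 731 genes for N-IKKα against WT. edgeR on recovered reads called no member in any comparison. DESeq2 called Mmp15 for C-IKKα against WT and for N-IKKα against C-IKKα, where it called 148 and 188 of the 17667 genes.

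Mmp15 encodes a membrane-anchored MMP. It had 304, 312 and 330 normalized counts in N-IKKα skin, 344, 441 and 499 in C-IKKα skin, and 215, 318 and 356 in WT skin. Every C-IKKα library lay above every N-IKKα library, and 1 C-IKKα library, at 344, lay within the WT range. The log2 fold change of C-IKKα against WT was 0.48 ± 0.12 (SE; 95% limits 0.23 to 0.73; limma, adjusted p = 0.131), and DESeq2 gave 0.47 with an adjusted p of 0.0142. Over all alternative settings of limma, the lowest adjusted p was 0.0582. Mmp15 was singled out after its values were seen, as the member with the smallest p. Resting libraries alone ran from 344 to 447 in male and stood at 370 in female C-IKKα skin, against 275 to 329 in male and 348 to 356 in female WT skin.

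Mmp25 encodes a lipid-anchored MMP known from neutrophils. It had 20.8, 46.8 and 93.3 normalized counts in N-IKKα skin, 66.9, 86.6 and 166 in C-IKKα skin, and 47.7, 56.0 and 65.5 in WT skin. It was the 1 member of 32 whose C-IKKα libraries all lay above the WT libraries, where 0.838% of all genes did so. The log2 fold change of C-IKKα against WT was 0.74 ± 0.34 (SE; limma, adjusted p = 0.844). In N-IKKα skin the 3 growing libraries had 20.8 to 27.1 and the 3 resting libraries 66.5 to 93.3, so its N-IKKα libraries parted by hair state. The 10 neutrophil markers, of which 4 passed the filter and none was at 0 everywhere, summed to 71.0 to 172 in N-IKKα, 96.8 to 241 in C-IKKα and 58.4 to 2357 in WT libraries, and their part in the Mmp25 values was not tested.

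The other members with the widest gaps between C-IKKα and WT skin had ranges that overlapped. Adamts19, whose substrates are little known, averaged 33.8 ± 29.5 normalized counts in C-IKKα skin and 63.3 ± 44.7 in WT skin (SD, n = 6 each), a log2 fold change of -1.06 ± 0.69 (SE; limma, adjusted p = 0.985) that was -0.31 with sex as a covariate. Its libraries ran from 8.26 to 75.9 in C-IKKα skin and from 18.0 to 139 in WT skin. The macrophage elastase Mmp12 had 29.9, 49.1 and 91.3 in C-IKKα skin and 12.0, 24.4 and 151 in WT skin, a log2 fold change of 0.72 ± 0.78 that was 1.20 without the growing libraries (limma, adjusted p = 0.985 and 0.213). WT library 1 gave the value 151. The gelatinase Mmp9 had 162, 227 and 330 in C-IKKα skin and 30.8, 188 and 275 in WT skin, which overlapped widely. Adamts10, which acts on the fibrillin network, completed the members at an unadjusted p below 0.05, with 488 ± 54.6 in C-IKKα skin and 369 ± 63.1 in WT skin (limma, adjusted p = 0.803). Over the 32 members the median log2 fold change of C-IKKα against WT was 0.13, with 20 positive and 12 negative, beside 0.00 over all genes tested. No member was lower in every C-IKKα library than in all WT libraries, where 0.147% of all genes were.

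In N-IKKα against WT skin, Mmp11 was the member with the lowest unadjusted p. This enzyme, also called stromelysin-3, is expressed by stromal cells of remodelling tissue. It had 77.6, 111 and 232 normalized counts in N-IKKα skin and 127, 170 and 437 in WT skin, a log2 fold change of -0.67 ± 0.28 (SE; limma, adjusted p = 0.880). The value 437 came from WT library 1, and without the growing libraries the log2 fold change was -0.07. Mmp12 had 0, 19.0 and 46.6 in N-IKKα skin and 12.0, 24.4 and 151 in WT skin, and its log2 fold change of -1.35 became 0.55 without the growing libraries. Adamts18 had 16.4, 175 and 523 in N-IKKα skin and 15.5, 27.0 and 441 in WT skin. Adamts17 had 66.7, 165 and 281 in N-IKKα skin and 64.3, 88.0 and 147 in WT skin. All of these ranges overlapped. Adamts4 had 18.5, 88.3 and 225 in N-IKKα skin and 16.7, 47.2 and 402 in WT skin. No member of 32 had groups that did not overlap, where 0.0849% of all genes were higher and 0.0396% lower in every N-IKKα library. The median over members was -0.02 on the log2 scale, with 16 positive and 16 negative, beside 0.01 over all genes.

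Members with known roles in skin overlapped among the 3 genotypes. The gelatinase Mmp2 had 847, 1672 and 4414 normalized counts in N-IKKα, 1204, 3473 and 4263 in C-IKKα and 929, 2788 and 4966 in WT skin. The stromelysin Mmp3 had 56.3, 92.4 and 817 in N-IKKα, 23.7, 475 and 606 in C-IKKα and 36.5, 236 and 931 in WT skin. Mmp14 had 3039, 3637 and 8649 in N-IKKα, 3097, 6570 and 7372 in C-IKKα and 2796, 5219 and 9766 in WT skin. These 3 genes spread widely within each genotype. Adamts1, which cuts versican and aggrecan, had 926, 1599 and 1848 in N-IKKα, 854, 970 and 1428 in C-IKKα and 988, 1347 and 2138 in WT skin. Adamts5, a related enzyme, had 1199, 1971 and 3036 in N-IKKα, 1609, 2034 and 2154 in C-IKKα and 1813, 2462 and 2893 in WT skin. Adamts20 had 43.4, 286 and 705 in N-IKKα, 56.9, 69.6 and 263 in C-IKKα and 55.3, 99.7 and 702 in WT skin. In each genotype the highest Adamts20 values came from growing libraries.

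**Figure D1:**
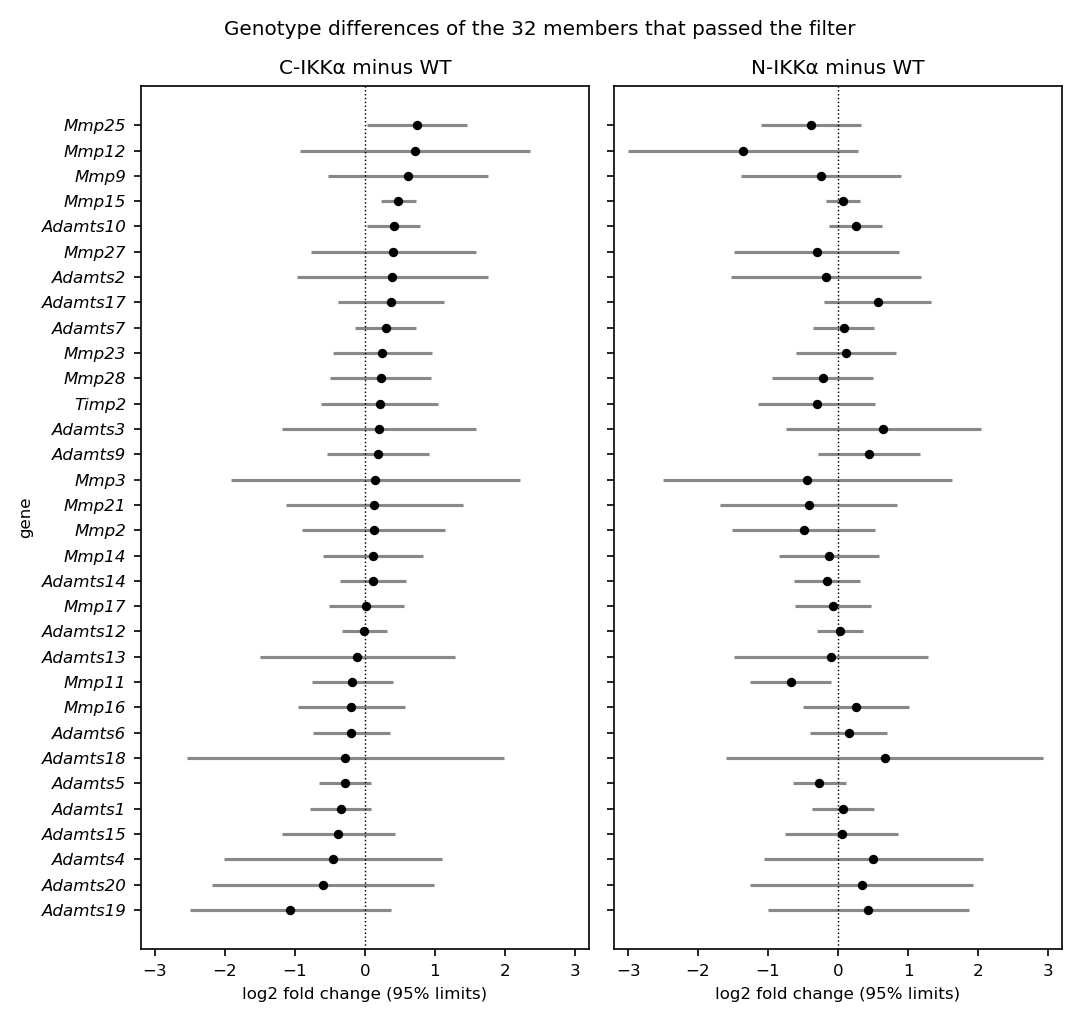
Log2 fold change of each of the 32 tested members (points) with 95% limits (lines) for C-IKKα minus WT on the left and N-IKKα minus WT on the right; genes are ordered by the left panel and the dotted line marks no difference. Mmp15 at 0.48 and Mmp25 at 0.74 lie above 0 on the left with limits that exclude 0, as do Adamts10 on the left and, below 0, Mmp11 on the right; the limits are not adjusted for the number of genes, and no member passed an adjusted p of 0.05.

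N-IKKα and C-IKKα skin were set against each other directly as well. Here too limma called 0 of 32 members, against 0.43% of all genes, of which 1 was higher and 75 were lower in N-IKKα skin; this comparison shares its libraries with both of those above. At an unadjusted p below 0.05 there were 4 members, Mmp12, Mmp15, Mmp25 and Adamts19, and 2059 genes. Mmp15 was lower in every N-IKKα library, where 0.736% of all genes were lower and 0.311% higher in all, with a log2 fold change of -0.41 ± 0.12 (SE; limma, adjusted p = 0.210; DESeq2, adjusted p = 0.0400). Mmp25 gave -1.13 ± 0.34 (limma, adjusted p = 0.249) and Mmp12 -2.07 ± 0.78 (limma, adjusted p = 0.380). Adamts19 gave 1.496 ± 0.69 (limma, adjusted p = 0.428) and Adamts4 0.96 ± 0.74 (limma, adjusted p = 0.525). Without the growing libraries, which numbered 3 in N-IKKα and 1 in C-IKKα mice, these became -0.37 for Mmp15, -0.39 for Mmp25, -0.65 for Mmp12, 1.04 for Adamts19 and 0.36 for Adamts4. With sex as a covariate Adamts19 gave 0.74 and Adamts4 0.28.

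**Figure D2:**
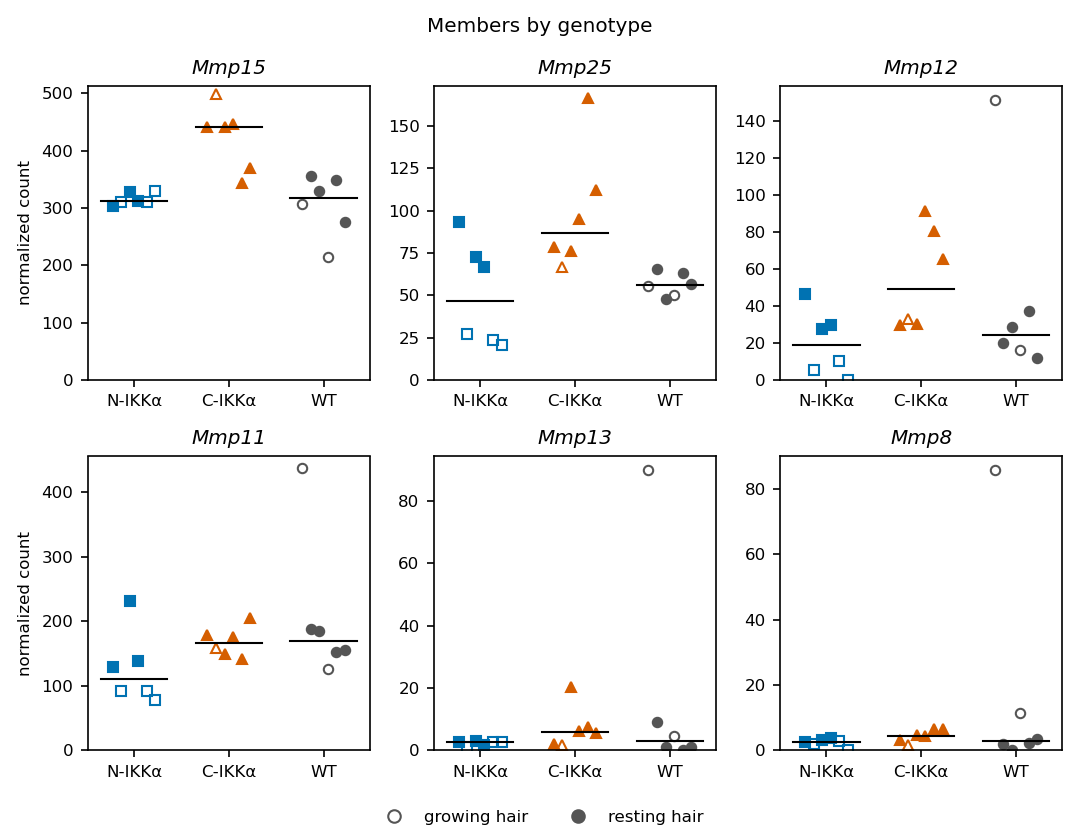
Normalized counts of 6 members in each library (symbols) by genotype, on linear axes from 0; lines are group medians, open symbols are growing and filled symbols resting libraries. C-IKKα libraries of Mmp15 lie between 344 and 499, all above the N-IKKα libraries, and the top WT symbol for Mmp11, Mmp12, Mmp13 and Mmp8 is the same library, WT 1.

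Hair state parted 8 of 32 members without overlap. All 6 growing libraries lay above all 12 resting libraries for 4 of 32 members (12.5%), where 8.45% of all genes did so: Adamts3, Adamts13, Adamts18 and Adamts20. All lay below for another 4 (12.5%), where 5.25% of genes did so: Adamts14, Mmp9, Mmp27 and Mmp28. Against the 4 resting female libraries alone, which are a subset of the 12, no further member was parted, and 4 of 32 in each direction stood beside 13% of all genes higher and 9.65% lower. The median absolute difference of medians was 1.13 on the log2 scale over members and 0.39 over all genes tested. In bulk tissue, fewer cells of a type and less RNA per cell cannot be told apart.

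The members higher in every growing library were ADAMTS genes. Adamts18, a close relative of Adamts16, had 218, 383 and 523 normalized counts in growing libraries and 15.5, 25.6 and 157 in resting libraries, a ratio of medians of 15.0. The resting value of 157 came from C-IKKα library 18, which also had the highest hair list mean among resting libraries; the next resting library stood at 28.6. Adamts20, a versican-cleaving protease known from the belted coat pattern of mutant mice, had 263, 491 and 705 in growing and 43.4, 67.0 and 120 in resting libraries, a ratio of 7.32. Adamts3, which trims procollagen ends, had 29.2, 49.2 and 67.8 in growing and 4.81, 9.52 and 28.5 in resting libraries. Adamts13, which cuts von Willebrand factor, was low in both, with 15.1, 23.2 and 44.5 in growing and 1.19, 6.59 and 14.1 in resting libraries. All 4 genes kept a gap between the sets. The gap was narrow for Adamts3, at 29.2 against 28.5, and for Adamts13, at 15.1 against 14.1.

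Other proteoglycan-cleaving ADAMTS genes had higher medians in growing libraries, with overlap. Adamts15 had 291, 362 and 682 in growing and 118, 166 and 394 in resting libraries. Adamts4 had 59.4, 155 and 402 in growing and 12.0, 39.2 and 96.0 in resting libraries. Adamts9 had 217, 375 and 477 in growing and 106, 168 and 290 in resting libraries, and Adamts1 had 1426, 1599 and 2138 against 854, 1035 and 1740. In each of the 4 genes at least 1 resting library reached into the growing range. For Adamts15 it was N-IKKα library 10 alone, at 394, and for Adamts9 C-IKKα library 18 alone, at 290. Adamts5, a main aggrecan- and versican-cleaving enzyme, went the other way, with 1199, 1724 and 2374 in growing and 1953, 2168 and 3036 in resting libraries. Of the fibrillin-network genes, Adamts17 had 136, 202 and 281 in growing and 62.4, 88.0 and 142 in resting libraries, and Adamts6 had 117, 225 and 276 against 91.3, 131 and 172. Adamts10 ran opposite to both, with 272, 318 and 430 in growing and 381, 510 and 643 in resting libraries.

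The members lower in every growing library were 3 MMPs and 1 ADAMTS gene. Mmp27, a little studied MMP of the chromosome 9 cluster, had 70.0, 150 and 249 normalized counts in growing and 354, 546 and 739 in resting libraries. Mmp28, or epilysin, an MMP of keratinocytes, had 136, 226 and 342 in growing and 356, 506 and 617 in resting libraries. Mmp9 had 30.8 to 162 in growing and 165 to 330 in resting libraries, so its sets were parted by a narrow gap. Adamts14, a procollagen-trimming enzyme like Adamts3, had 410, 453 and 577 in growing and 610, 825 and 886 in resting libraries. Adamts3 and Adamts14 thus lay on opposite sides. Keratinocyte markers summed to 134285 to 182490 in growing and 177686 to 245785 in resting libraries, T cell markers to 199 to 331 and 509 to 745, and dermal papilla markers to 4432 to 7733 and 2525 to 4167; their part in these differences was not tested.

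**Figure D3:**
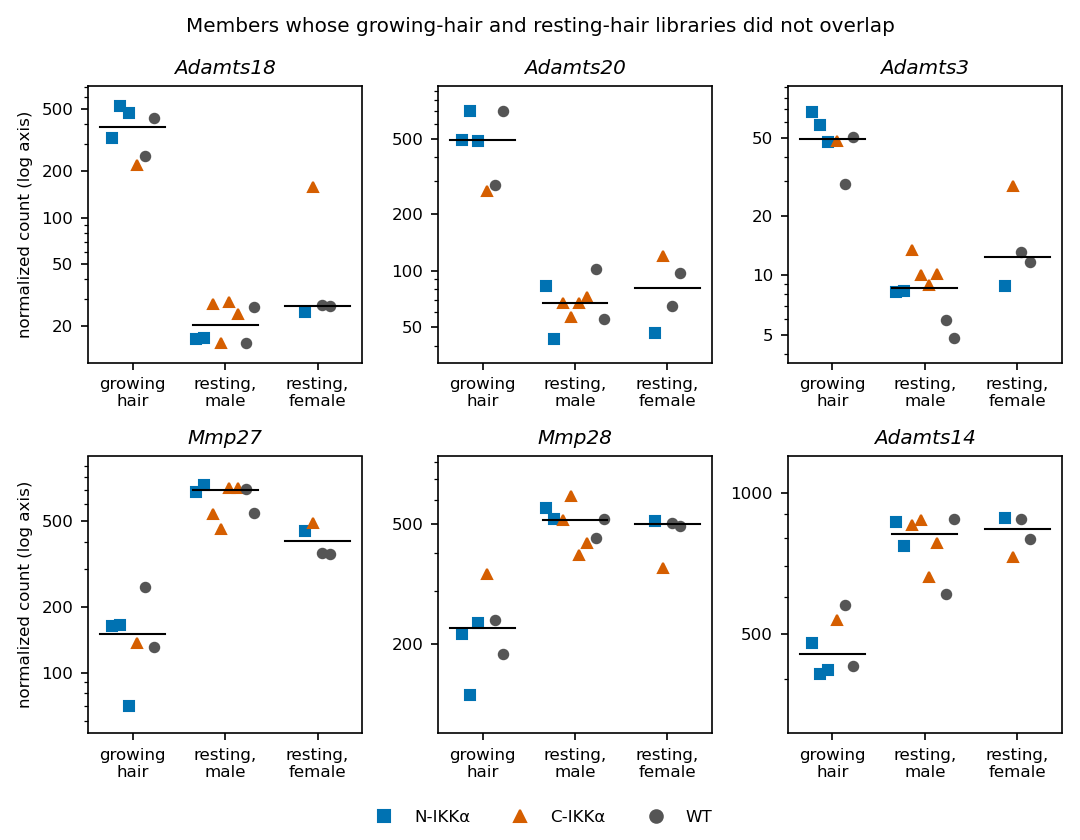
Normalized counts (log axis) of 6 members whose growing and resting libraries did not overlap, by growing libraries, resting male libraries and resting female libraries; symbols are libraries, their shape and colour the genotype, and lines are medians. Adamts18, Adamts20 and Adamts3 are high in all 6 growing libraries, while Mmp27, Mmp28 and Adamts14 are low there.

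Counts within a genotype draw on the same libraries, so the 8 members above are among them by construction. Among WT mice, 2 growing and 4 resting libraries, 7 members were higher (21.9%), where 23.5% of all genes were, and 5 were lower (15.6%), where 21.5% were. Among N-IKKα mice, 3 growing and 3 resting libraries, 9 members were higher (28.1%) and 15 lower (46.9%), where 26.9% of genes fell in each direction. C-IKKα mice had 1 growing library, so no such count was made. Without WT library 1 the count over all mice was 5 higher, with Adamts17 added, and 8 lower, with Adamts5, Mmp2, Mmp3 and Timp2 added, where 9.79% of genes were higher and 7.57% lower.

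Sex parted 8 of 32 members among resting libraries without overlap. All 8 male libraries lay above all 4 female libraries for 6 of 32 members (18.8%), where 1.74% of all genes did so: Adamts2, Mmp2, Mmp3, Mmp9, Mmp14 and Timp2. They lay below for Adamts15 and Adamts19 (6.25%), where 1.32% of genes did so. Mmp3, or stromelysin-1, had 406, 640 and 931 normalized counts in male and 70.1, 103 and 164 in female resting libraries, a ratio of medians of 6.24. Adamts2, the main procollagen I trimming enzyme, had 4296, 5931 and 6190 in male and 1208, 1487 and 2885 in female libraries. A gap between the sexes within each genotype follows from the split over all resting libraries. N-IKKα and C-IKKα mice had only 1 resting female library each.

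Mmp14, Mmp2 and Timp2, which act together at the cell surface, were each higher in every resting male library. Mmp14, a membrane-anchored collagenase, had 5977, 7280 and 9766 in male and 3310, 3736 and 4508 in female resting libraries. Mmp2, the gelatinase it activates, had 2859, 4222 and 4966 in male and 1800, 2081 and 2464 in female libraries. Timp2 had 13568, 17647 and 20739 in male and 9049, 9870 and 10957 in female libraries. Mmp9 was closer, with 224 to 330 in male and 165 to 217 in female libraries. Adamts19 ran the other way with 8.26, 17.2 and 37.1 in male and 61.8, 72.3 and 123 in female libraries, and Adamts15, another versican-cleaving enzyme, had 118, 151 and 194 against 236, 279 and 394.

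The summed fibroblast list was also higher in resting males, but its markers split in direction. The 10 markers summed to 190044 to 409825 in male and 48298 to 76945 in female resting libraries, without overlap, and none of the 10 was at 0. Col1a1, Col1a2, Col3a1 and Pdgfrb were higher in every male library, while Pdgfra, Dpt and Fap were higher in every female library. Without the 3 collagens the remaining 7 markers summed to 30770 to 50103 in male and 28650 to 38025 in female libraries, with overlap. Mast cell markers summed to 1026 to 1362 in male and 2143 to 2469 in female libraries. The part of either list in the protease differences was not tested.

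Sex also bears on the comparison of growing with resting libraries, because every growing library was female. In growing libraries Mmp3 had 23.7, 57.0 and 308, Adamts2 772, 1016 and 1849, and Mmp14 2796, 3367 and 5930 normalized counts, ranges that overlapped those of resting females. Mmp2 had 847, 1056 and 3111 in growing libraries, again overlapping resting females. The overlap of Mmp2 and Mmp3 rested on WT library 1, since the other 5 growing libraries had 847 to 1204 for Mmp2 and 23.7 to 62.4 for Mmp3, below all resting females. Over all 12 resting libraries, Mmp3 had 70.1, 572 and 931, Adamts2 1208, 5298 and 6190, and Mmp2 1800, 4130 and 4966. Adamts19 had 58.5, 109 and 139 in growing and 8.26, 23.4 and 123 in all resting libraries, with overlap. For Mmp14 the ratio of growing to resting medians was 0.472 over all resting libraries and 0.901 over resting females. For Mmp3 the same ratios were 0.0997 and 0.556, and for Adamts19 4.68 and 1.51. The growing-hair differences of Adamts18, at 15.0 and 14.1, and of Mmp28, at 0.447 and 0.454, were nearly as large against resting females.

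**Figure D4:**
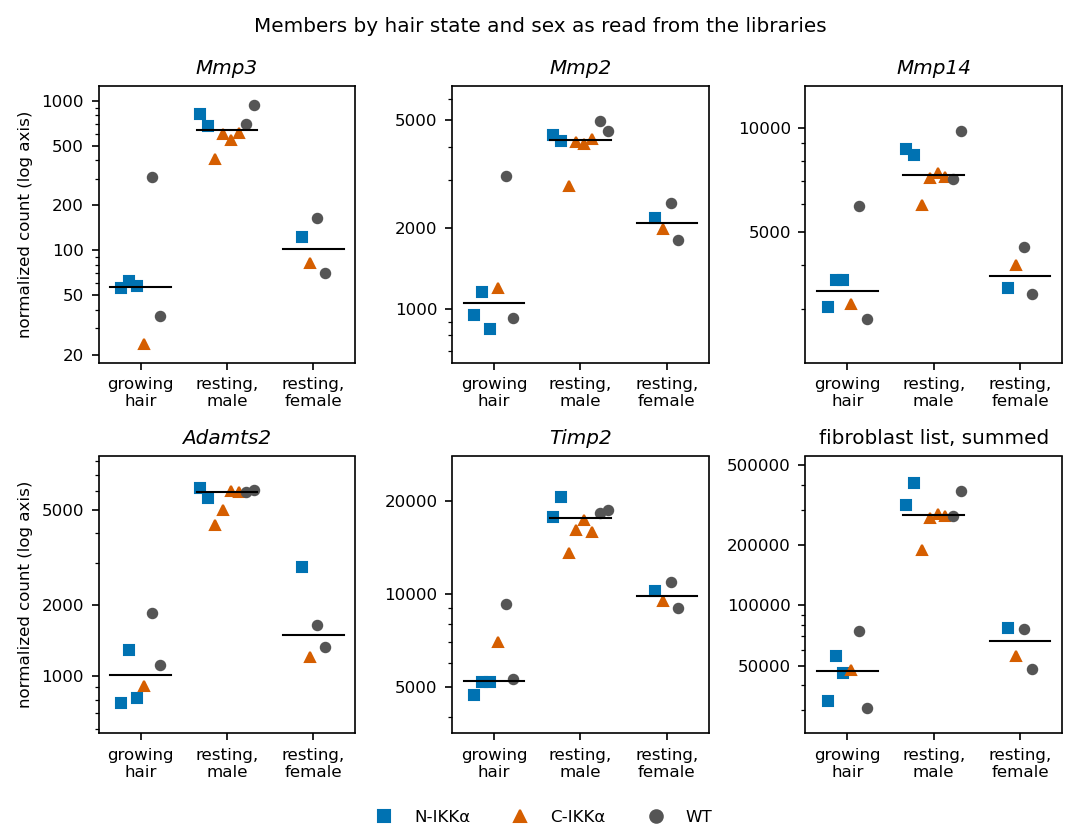
Normalized counts (log axis) of 5 members and the summed fibroblast list by growing libraries, resting male libraries and resting female libraries; symbols are libraries, their shape and colour the genotype, and lines are medians. Resting males lie above resting females in each panel, from 406 to 931 against 70.1 to 164 for Mmp3. Without its collagens the fibroblast sum overlapped between resting males and resting females.

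Resting males allowed a closer look at genotype, with 2 N-IKKα, 4 C-IKKα and 2 WT libraries. Mmp3 had 674 and 817 in N-IKKα, 406 to 606 in C-IKKα and 702 and 931 normalized counts in WT males, so that the 4 C-IKKα libraries were lowest. Timp2 had 17855 and 20739 in N-IKKα, 13568 to 17438 in C-IKKα and 18412 and 18799 in WT males, again with C-IKKα lowest. C-IKKα males were highest for other members, among them Mmp15 and Mmp25. Mmp15 had 313 and 328 in N-IKKα, 344 to 447 in C-IKKα and 275 and 329 in WT males. Mmp25 had 66.5 and 72.8 in N-IKKα, 76.2 to 166 in C-IKKα and 47.7 and 56.5 in WT males. The share of all genes parted in either direction among resting males was not counted. None of these gaps is therefore read as a difference between genotypes. Mmp14 had 8328 and 8649 in N-IKKα, 5977 to 7372 in C-IKKα and 7090 and 9766 in WT males, with overlap. Fibroblast markers summed to 316584 and 409825 in N-IKKα, 190044 to 285407 in C-IKKα and 277755 and 371888 in WT males, and their part was not tested. Collagens made up most of these sums. In the fit of resting libraries with sex as a covariate, the C-IKKα against WT log2 fold change was -0.51 for Mmp3 (limma, adjusted p = 0.271) and -0.19 for Timp2 (limma, adjusted p = 0.424).

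WT library 1 had the highest values of all libraries for Mmp8, Mmp11, Mmp12, Mmp13 and Adamts4. Mmp13, the main interstitial collagenase of the mouse, had 89.7 normalized counts there, against at most 9.07 in the other WT libraries, 20.2 in C-IKKα skin and 3.08 in N-IKKα skin. Mmp8, the neutrophil collagenase, had 85.7 there and at most 11.4 elsewhere. Mmp12 reached 151 there, beside 37.4 in the next WT library. The library was also the highest of all for Mmp11, at 437, and for Adamts4, at 402. Among growing libraries it was the highest for Mmp3 at 308, where the other 5 had 23.7 to 62.4, and below the resting males, which had 406 to 931. In this library the neutrophil markers summed to 2357, where the other 17 had 58.4 to 241, and S100a9 had 1072, where the others had 8.31 to 55.1; macrophage markers summed to 18126, where the other growing libraries had 4578 to 8357 and the resting libraries 9034 to 18335. Their part in the protease values was not tested. Mmp8 and Mmp13 passed 10 normalized counts in 2 libraries each and so were below the filter.

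The remaining members overlapped among the genotypes or were scarce. Adamts12, a relative of Adamts7 that also cuts cartilage oligomeric matrix protein, averaged 852 ± 170 in N-IKKα, 822 ± 94.7 in C-IKKα and 839 ± 186 normalized counts in WT skin (SD, n = 6 each), and Adamts7 averaged 89.4 ± 22.8 in N-IKKα, 103 ± 17.6 in C-IKKα and 85.2 ± 24.6 in WT skin. The membrane-anchored Mmp16 averaged 99.1 ± 44.5 in N-IKKα, 72.9 ± 28.7 in C-IKKα and 80.6 ± 28.3 in WT skin. Mmp17, a lipid-anchored MMP, averaged 80.8 ± 21.9 in N-IKKα, 84.1 ± 8.41 in C-IKKα and 89.7 ± 36.8 in WT skin, and Mmp23 88.6 ± 29.9, 96.7 ± 30.1 and 88.1 ± 45.1. Mmp21 ran from 2.84 to 20.9 in N-IKKα, 4.59 to 19.6 in C-IKKα and 1.14 to 27.2 in WT skin. All group differences in the means above were smaller than the SD of the more variable group. Below the filter, the highest value in any library was 18.3 for Adamts8, 11.9 for Adamts16, 9.50 for Mmp24, 9.13 for Mmp20 and 5.04 for Mmp10. Mmp7 reached 2.69, and the related pair Mmp1a and Mmp1b 2.09 and 2.02, which is within what a listed 0 allows. Whether reads of that pair were split between them was not tested.

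**Figure D5:**
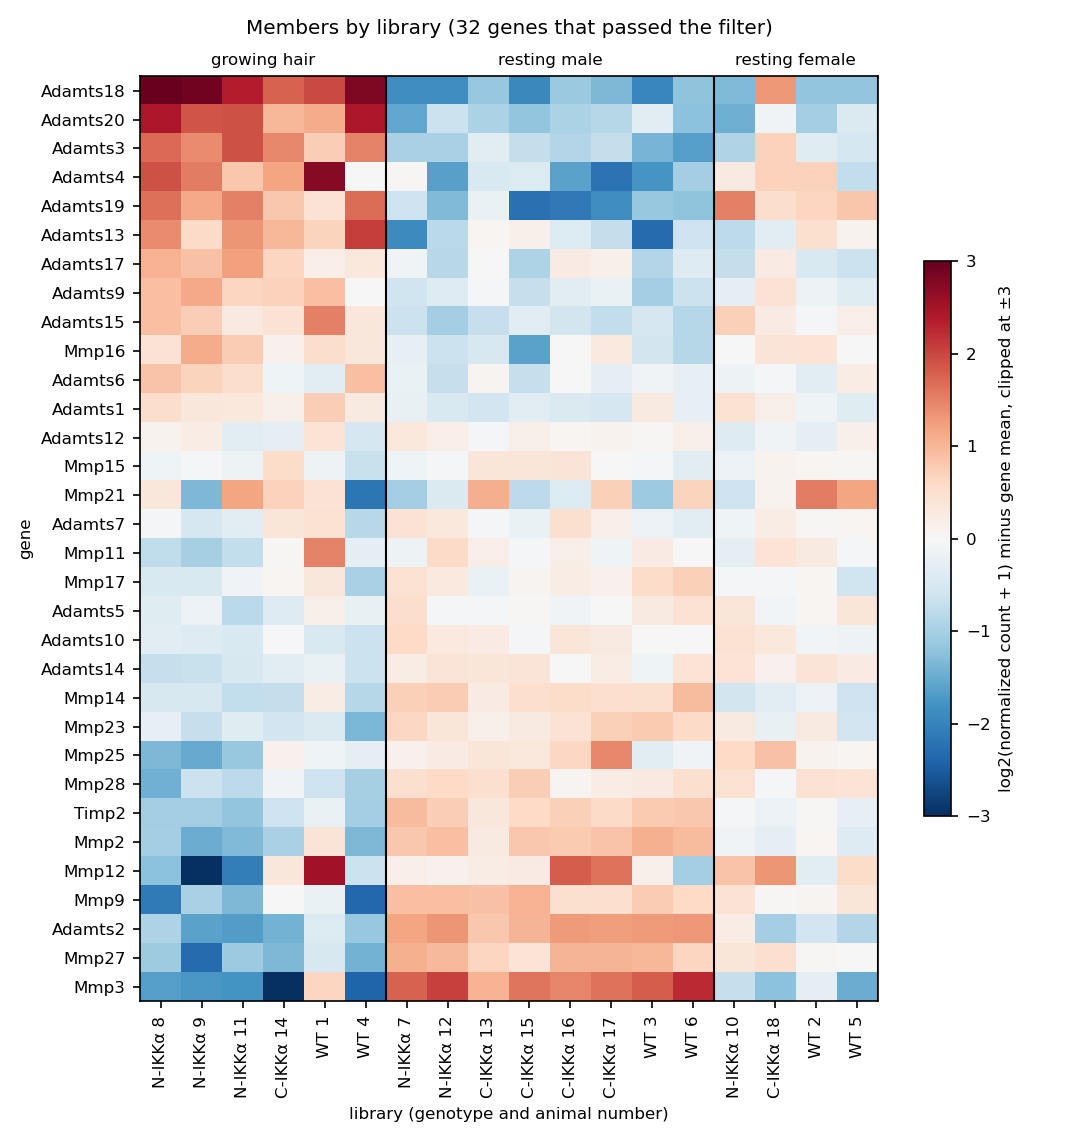
Log2(normalized count + 1) of the 32 tested members (rows) in 18 libraries (columns), with each gene's mean subtracted and colours clipped at ±3; columns are ordered by growing, resting male and resting female libraries and rows by their mean in growing libraries. Adamts18 and Adamts20 head the rows with red in the 6 growing columns, and the resting male columns carry the highest Mmp3 and Adamts2.

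Partners and substrates of the proteases were read from 7 lists of 89 genes, of which 79 passed the filter. limma called none of the 79 for C-IKKα against WT, N-IKKα against WT or N-IKKα against C-IKKα, and edgeR and DESeq2 called none either. At an unadjusted p below 0.05 there were 5, 2 and 11 of the 79, where 5.73%, 4.14% and 11.7% of all genes were. The median log2 fold changes were 0.07, -0.08 and -0.13. The genes named next were among those with the smallest p of each list. For N-IKKα against WT, Serpinb2, an inhibitor of plasminogen activators, averaged 1204 ± 433 in N-IKKα and 1933 ± 531 in WT skin. Bmp1, the procollagen C-propeptide protease, averaged 1115 ± 102 in N-IKKα and 926 ± 185 in WT skin, and Pappa, which cuts growth factor binding proteins, 641 ± 248 and 489 ± 336. Of the sheddases, Adam8 averaged 114 ± 61.0 in N-IKKα and 203 ± 148 in WT skin, and the sheddase partner Rhbdf2 971 ± 137 and 845 ± 129. Fibronectin, Fn1, averaged 2588 ± 507 in N-IKKα and 3270 ± 1040 in WT skin, and the cathepsin gene Ctsd 229 ± 58.6 and 300 ± 88.3. The lowest adjusted p of limma over all of these was 0.880.

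For C-IKKα against WT, the neutral endopeptidase gene Mme averaged 706 ± 85.8 in C-IKKα and 569 ± 79.5 in WT skin (limma, adjusted p = 0.617), and Tnn, a tenascin, 165 ± 57.8 and 91.7 ± 111 (limma, adjusted p = 0.646). The ADAMTS-like gene Papln averaged 195 ± 25.0 in C-IKKα and 257 ± 46.5 in WT skin. Plat, a plasminogen activator, averaged 409 ± 91.9 in C-IKKα and 503 ± 77.9 in WT skin. The sheddase Adam9 averaged 1009 ± 71.1 in C-IKKα and 1181 ± 214 in WT skin. The cathepsin gene Ctsl averaged 1500 ± 183 in C-IKKα and 2151 ± 855 in WT skin. The lowest adjusted p among the last 4 genes was 0.836 in limma. For N-IKKα against C-IKKα, the smallest p values were those of Bmp1, Tnn, Papln, Adam8 and Mme, with a lowest adjusted p of 0.379 in limma.

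By hair state, 5 of these 79 genes (6.33%) were higher in all growing libraries, where 8.45% of all genes were, and 8 (10.1%) were lower, where 5.25% were. Vcan, the proteoglycan versican cut by Adamts20, had 1834, 2995 and 7131 normalized counts in growing and 669, 892 and 1658 in resting libraries. Tnc, a tenascin, had 458, 861 and 1082 in growing and 46.7, 141 and 225 in resting libraries, and Furin, which activates ADAMTS and membrane-anchored MMP precursors, 1222, 1338 and 1796 against 735, 968 and 1210. Lower were the small collagen-binding proteoglycans Dcn and Lum. Dcn had 6600, 7164 and 11283 in growing and 15194, 21837 and 31661 in resting libraries. Lum had 2470, 3126 and 4802 against 6770, 8789 and 11554. Both are also on the fibroblast list, which summed to 30772 to 74163 in growing libraries. That list summed to 48298 to 76945 in resting female and 190044 to 409825 in resting male libraries. Among resting libraries 6 of the 79 (7.59%) were higher in all males, where 1.74% of all genes were, among them Pcolce, an enhancer of procollagen processing, with 833, 1132 and 1430 in male and 460, 634 and 813 in female libraries. Ctsk, the collagen-cutting cathepsin K, had 2103, 3668 and 4676 in male and 645, 811 and 923 in female libraries. The genes lower in all males were 2 of the 79 (2.53%), where 1.32% of all genes were: Vcan, with 669, 850 and 941 in male and 991, 1219 and 1658 in female libraries, and the cathepsin gene Ctsb.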

How the data were processed

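Stranded mRNA libraries from TRIzol and column-purified skin RNA were sequenced paired-end on a NovaSeq, per the labels. The submitters' processing notes name featureCounts and GRCm39. The sources used here give no aligner, version, strand setting or annotation. The deposited signal, a normalized count per gene and library, was a whole number of reads divided by 1 factor per library (largest distance from a whole read 5.7e-05). Reads were recovered from these steps.

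Values were tested as log2(normalized count + 1) with limma 3.58.1 (R 4.3.3; mean-variance trend) over all 18 libraries with 3 group means, two-sided, with Benjamini-Hochberg adjustment over 17667 genes per comparison and a call at adjusted p below 0.05. The filter was 10 normalized counts in 6 libraries. edgeR 4.0.16 and DESeq2 1.42.0 on recovered reads, a pseudocount of 0.5 or 5, a filter of 50 or none, other scalings, covariates and left-out libraries were alternatives. The fit was tested on simulated data. Growing libraries had a hair list mean above 8, and male libraries a Ddx3y count above 500. No 2 libraries were copies, since pairs of libraries differed by a chi-square per gene of 5.61 or more. Limits for a listed 0 use 3 counts. They cover counting error only, as PCR copies were not told apart.

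The members and lists were chosen with earlier results of these data known. Described with values were Timp2, 9 members with known roles in skin, per comparison the 4 members with the widest fold change at a mean of at least 50, and the 4 with the widest median difference per direction between hair states; of a pathway list, genes with the smallest p, of which some are not reported here. Mmp15, Mmp8 and the list genes given by hair state or sex were added after their values were seen.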

Additional observations from a re-analysis of the deposited data

Results flagged for a closer look

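Each described gene was searched in each group of 6 for a library far from the rest. Of 60 groups searched, 9 were flagged. For genes chosen without regard to their values, chance would flag about 1 in 20 groups, or 3 here. The described genes were partly chosen by their values, and Mmp8 because 1 library was high. The flags are therefore not set against that rate. In WT skin, 5 flags fell on library 1, high in each case: Mmp11 at 437 normalized counts (next 188), Mmp8 at 85.7 (next 11.4), Adamts4 at 402 (next 95.8), Mmp12 at 151 (next 37.4) and Mmp13 at 89.7 (next 9.07). Adamts20 was flagged in 2 growing libraries, C-IKKα 14 at 263 (next 120) and WT 4 at 702 (next 285). In C-IKKα skin, Adamts5 was low in the growing library 14 at 1609 (next 1953), and Mmp13 was high in library 15 at 20.2 (next 7.40).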

How the results depend on the processing

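Alternatives that changed a count of calls are given here; the cause of these changes was not tested. Members called numbered 0 in all limma settings and in edgeR, and DESeq2 called 1 (Mmp15) for C-IKKα against WT and 1 (Mmp15) for N-IKKα against C-IKKα. Of all genes, 61 were called for C-IKKα against WT, and this became 38 with a filter of 50, 148 with DESeq2, 167 with a hair covariate and 164 without the growing libraries. N-IKKα against C-IKKα gave 76, and 47, 188, 157 and 44 under the same settings. N-IKKα against WT gave 1, and 2 with no filter, 0 with a filter of 50, 2 with DESeq2, 0 with the pair of groups alone and 2 without the growing libraries. Of settings added after seeing the data, hair and sex covariates together gave 156 for C-IKKα against WT and 176 for N-IKKα against C-IKKα, and resting libraries with a sex covariate gave 234 for C-IKKα against WT and 2 for N-IKKα against WT. The Chuk log2 fold change of N-IKKα against WT, -0.018, became 0.0222 without the growing libraries and 0.0315 with sex added. Leaving out 1 library at a time gave 33 to 73 calls for C-IKKα against WT, 39 to 103 for N-IKKα against C-IKKα, 1 to 2 for N-IKKα against WT, 0 members called throughout, 8 to 13 members not overlapping between hair states (main 8, and 13 without WT 1), and Chuk log2 fold changes of -0.21 to -0.10 for C-IKKα against WT, 0.13 to 0.21 for N-IKKα against C-IKKα and -0.064 to 0.051 for N-IKKα against WT. Under the other alternatives, 6 to 9 members did not overlap between hair states. Of 54 member fold changes examined, 35 changed sign under at least 1 alternative, and none of these fold changes was called in limma. No paired analysis was possible because the groups share no replicate numbers. Limits are the 6 mice a group, the uneven hair states and sexes over groups, and TIMP genes listed at 0.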
